A study of Rattus norvegicus with 15 samples.

Results

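Ankrd1 (gene ID 27064), Ankrd2 (309374), Ankrd23 (316330) and Csrp3 (117505) were followed across rat multifidus muscle, the deep paraspinal muscle beside the spine. These 4 genes were taken by symbol from a table of 37991 genes, and all 4 were among the 17201 genes that passed the filter on low counts. Ankrd1 was chosen by its measured difference between the pMT and Surgery libraries, so that difference is described without a test. The other 3 genes were taken as its family members and partners. RNA was sequenced in 15 libraries from wild-type male Sprague Dawley rats aged 12 weeks. The Control group (2 libraries) had no operation. Rats of the Surgery group (2 libraries) underwent hemilaminectomy with ligation of the left L5 spinal nerve and no later treatment. The pMT group (4 libraries) had the operation and then intramuscular injections of mitochondria isolated from human plasma (pMT), 25 µg at each injection site and 50 µg in total. The VitD group (3 libraries) received cholecalciferol, 150 µg at each site and 300 µg in total, and the pMT/VitD group (4 libraries) received both agents at those doses. By the study's methods, treatment of the pMT group took place on day 14 and tissue was taken on day 28. Neither the day of injection nor the operation is stated for the VitD and pMT/VitD groups in the sources used here, and no group injected with vehicle was analysed here. The labels do not say whether each library came from a different rat, so the p-values measure only the spread between these libraries.

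Ankrd1 (CARP), Ankrd2 (ARPP) and Ankrd23 (DARP) are the muscle ankyrin repeat proteins. They bind the spring-like N2A region of titin in the I-band of the sarcomere, can also be found in the nucleus, and are known as genes that respond to stretch, denervation and injury. Ankrd1 is abundant in the heart and scarce in resting skeletal muscle, Ankrd2 is best known from slow fibres, and Ankrd23 has been linked to energy metabolism. Csrp3 encodes muscle LIM protein, a Z-disc and nuclear protein that takes part in myogenic differentiation and in the response to mechanical load.

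Promoter windows from RefSeq (build GRCr8), running from 250 bases before to 50 bases after the start of the gene, were matched for 2 of the 4 genes, Ankrd2 and Ankrd23. Both are shown because these relatives of Ankrd1 spanned a narrower range of levels than Ankrd1 did. Capitals mark E-boxes (CANNTG, the motif of myogenic factors such as MyoD and myogenin) and the M-CAT core (CATTCC, the motif of TEAD factors), searched on both strands. The Ankrd2 window lies at chr1:250796169-250796468 on the plus strand and the Ankrd23 window at chr9:46274461-46274760 on the minus strand.
Ankrd2: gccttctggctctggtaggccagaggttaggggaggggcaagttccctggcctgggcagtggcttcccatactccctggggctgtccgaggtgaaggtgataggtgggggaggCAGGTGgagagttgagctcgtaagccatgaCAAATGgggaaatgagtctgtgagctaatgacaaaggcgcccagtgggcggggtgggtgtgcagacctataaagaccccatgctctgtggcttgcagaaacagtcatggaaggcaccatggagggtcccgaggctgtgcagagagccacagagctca
Ankrd23: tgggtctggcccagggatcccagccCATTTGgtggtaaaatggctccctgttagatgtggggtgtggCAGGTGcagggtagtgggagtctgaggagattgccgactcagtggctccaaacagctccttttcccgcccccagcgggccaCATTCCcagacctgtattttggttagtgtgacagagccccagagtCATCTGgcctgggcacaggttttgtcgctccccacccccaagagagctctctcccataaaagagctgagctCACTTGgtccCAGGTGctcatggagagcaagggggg
The Ankrd2 window held 2 E-boxes, CAGGTG beginning at position -137 and CAAATG at -107 from the start, and no M-CAT core. The Ankrd23 window held 5 E-boxes, CAGGTG at -183 and at 25 among them, and 1 M-CAT core at -102. Neither window held the CArG box of SRF or the MEF2 box. Of 33469 windows of this length, 72.1% held an E-box, 14.2% an M-CAT core, 1.64% a CArG box and 3.29% a MEF2 box.

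Total counts ranged from 52342134 to 73557878 per library. Fast fibre genes summed to between 115097 and 195274 CPM (counts relative to the library total, scaled by the TMM method) in every library, as skeletal muscle would give. Before any gene was compared, the libraries were compared with each other over 3157 abundant genes that left out the 4 genes. The standard deviation (SD) of the log2 ratio between 2 libraries was 0.0635 for the Surgery pair and had a median of 0.344 over the 17 pairs within a group. VitD replicate 2 lay nearer to Surgery replicate 2 (SD 0.0833) and replicate 1 (0.108) than to VitD replicate 3 (0.155) or replicate 1 (0.399). Each library was then set against the closest weighted mean of 2 others. With a free choice of pair and weight, such a mean was nearer than the nearest single library for all 15, so the size of the gain is given. VitD replicate 2 was matched by 27% of VitD replicate 1 and 73% of VitD replicate 3, a small gain (residual SD 0.0696 against 0.0833), and Surgery replicate 2 by 62% of Surgery replicate 1 and 38% of VitD replicate 2 (0.0486 against 0.0635). Control replicate 1 was matched by 42% of pMT/VitD replicate 3 and 58% of pMT/VitD replicate 4, with a residual SD of 0.0635 against 0.136 for its nearest library. For pMT replicate 2 the match was 49% of pMT replicate 1 and 51% of pMT replicate 3 (0.0528 against 0.165). The 4 genes had no part in these weights, yet the weighted means came near their values: Ankrd1 in VitD replicate 2 was measured at 267 CPM against 265 CPM in the weighted mean, and Csrp3 at 367 CPM against 352 CPM. Why these libraries resembled others was not tested. Libraries alike in this way may not be independent samples, in which case the p-values below are too small. Comparisons with the VitD group below leave out the Surgery and pMT groups, but the fit estimates its spread and scaling over all 15 libraries. VitD replicate 2 was also so near the Surgery libraries that these comparisons are not fully separate from the choice of Ankrd1. Results resting on libraries this alike are also given without Control replicate 1, Surgery replicate 2, VitD replicate 2 and pMT replicate 2. This alternative was chosen after the data were seen and leaves 1 Control and 1 Surgery library. Comparisons with those 2 groups then called hardly any gene, so they cannot judge a list of genes. pMT replicate 4 lay nearest to pMT/VitD replicate 1 (SD 0.179), and pMT/VitD replicate 4 nearest to Control replicate 1 (0.168).

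Ankrd1 was low in Control muscle, at 10.3 and 10.4 CPM, and high in Surgery muscle, at 244 and 253 CPM. In the VitD group it stood at 752, 267 and 84.7 CPM in replicates 1 to 3. The pMT libraries held 14.1, 14.4, 15.3 and 7.16 CPM, and the pMT/VitD libraries 7.93, 8.47, 7.07 and 14.3 CPM. The 15 values thus fell into 2 ranges that did not meet, with the Surgery and VitD libraries at or above 84.7 CPM and all others at or below 15.3 CPM. By group mean the order was pMT/VitD (9.46 ± 3.31, SD, n = 4), Control (10.4 ± 0.104, n = 2), pMT (12.7 ± 3.74, n = 4), Surgery (248 ± 6.37, n = 2) and VitD (368 ± 345, n = 3). The first 3 groups overlapped one another, and the Surgery values lay inside the VitD range. Replicate 4 stood on the other side of its group in both pMT groups, lowest in pMT and highest in pMT/VitD. Without those 2 libraries, the pMT mean was 14.6 ± 0.631 CPM (n = 3) and the pMT/VitD mean 7.83 ± 0.705 CPM (n = 3). The 2 groups then did not overlap, because the values that had joined them were left out. That setting also raised the number of all genes called between these 2 groups, so the gap is not particular to Ankrd1. In this bulk tissue, fewer cells of a type and less RNA per cell cannot be told apart.

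**Figure D1:**
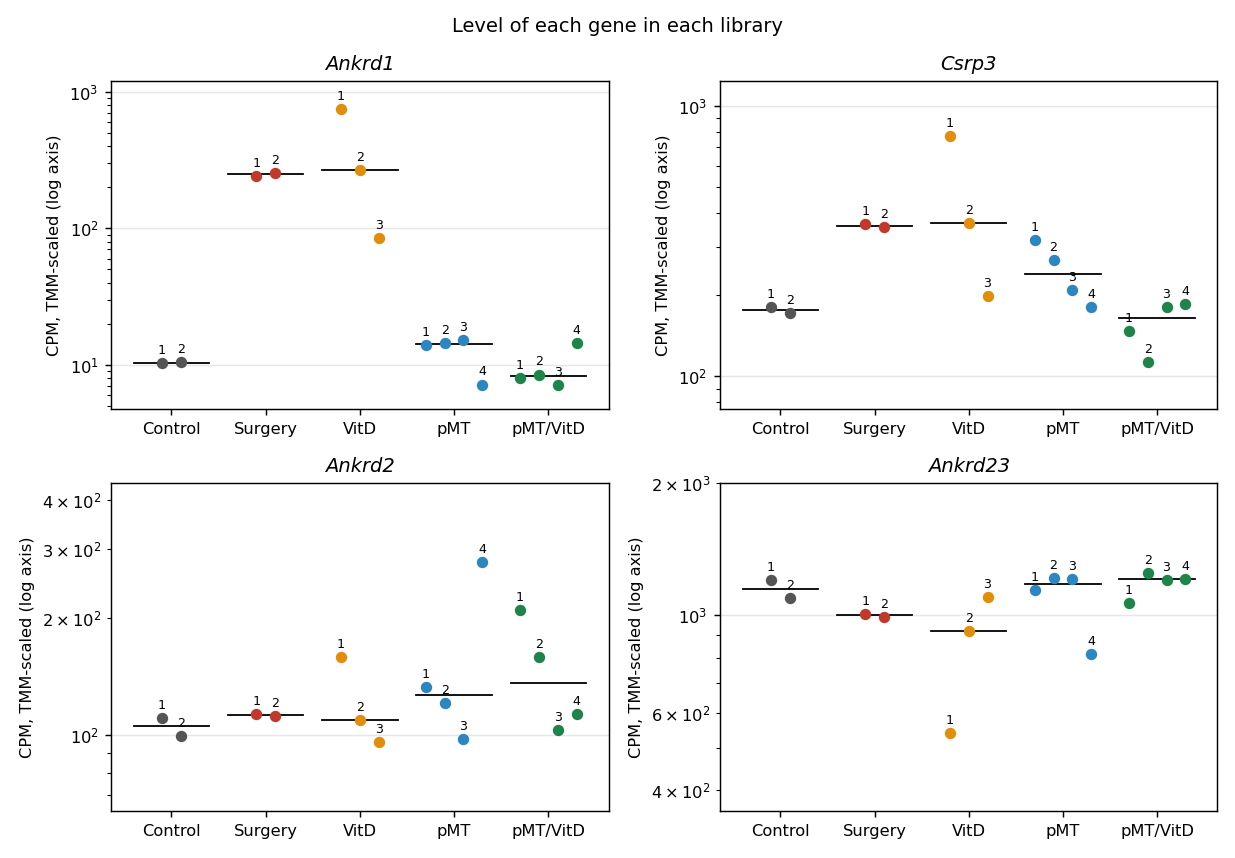
CPM (TMM-scaled, log axis) of Ankrd1, Csrp3, Ankrd2 and Ankrd23 in each of the 15 libraries, with points numbered by replicate and a line at each group's median. The Surgery and VitD points of Ankrd1, from 84.7 to 752 CPM, sit apart from every other point, whereas Ankrd23 stays between 539 and 1250 CPM.

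Csrp3 followed the same order with smaller steps. It stood at 180 and 172 CPM in Control, 366 and 355 CPM in Surgery, and 770, 367 and 198 CPM in VitD replicates 1 to 3. The pMT libraries held 317, 269, 209 and 181 CPM, and the pMT/VitD libraries 146, 113, 180 and 185 CPM. VitD replicate 3, at 198 CPM, lay within the range of the pMT libraries, so the groups were less cleanly separated than for Ankrd1. Group means ran from pMT/VitD (156 ± 33.4, SD, n = 4) through Control (176 ± 5.86, n = 2), pMT (244 ± 61.4, n = 4) and Surgery (360 ± 7.51, n = 2) to VitD (445 ± 294, n = 3). Control lay inside the pMT/VitD range, pMT overlapped pMT/VitD, and Surgery lay inside the VitD range.

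Ankrd2 did not separate the groups. Control libraries held 111 and 99.5 CPM, Surgery libraries 113 and 112 CPM, and VitD libraries 159, 109 and 95.6 CPM. The pMT libraries held 133, 121, 97.6 and 278 CPM, and the pMT/VitD libraries 209, 158, 103 and 113 CPM. The highest values came from pMT replicate 4 and pMT/VitD replicate 1, which lie in different groups. Those libraries were also the highest in slow fibre genes, a list of 11 measured genes that summed to 9179 CPM in pMT replicate 4 and 9148 CPM in pMT/VitD replicate 1, against a range of 5337 to 8493 CPM in the other 13 libraries. Tnnt1, slow skeletal troponin T, stood at 1021 CPM in pMT replicate 4 and 1096 CPM in pMT/VitD replicate 1, against 526 and 610 CPM in the Control libraries. It was as high, at 1021 CPM, in pMT/VitD replicate 2, where Ankrd2 was 158 CPM, a level close to the 159 CPM in VitD replicate 1 with 604 CPM of Tnnt1. The part of the slow fibre genes in the Ankrd2 values was not tested.

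Ankrd23 was the most even of the 4 genes. It stood at 1201 and 1095 CPM in Control, 1009 and 989 CPM in Surgery, and 539, 920 and 1098 CPM in VitD. The pMT libraries held 1143, 1213, 1211 and 817 CPM, and the pMT/VitD libraries 1064, 1250, 1205 and 1208 CPM. VitD replicate 1, the library with the most Ankrd1 and Csrp3, had the least Ankrd23, and pMT replicate 4, the library with the most Ankrd2, had the next lowest value.

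Levels of different genes were compared in TPM, a level that allows for transcript length. Ankrd23 made up the largest share of the summed TPM of the 4 genes in 14 of the 15 libraries, at between 38.1% and 66.7%. In VitD replicate 1 Csrp3 led, at 50.2%, and Ankrd23 made up 14.2%. Ankrd1 was 0.733% and 0.806% of the sum in Control, and between 0.506% and 1.05% over the pMT and pMT/VitD libraries. Its share was 13.3% and 13.97% in Surgery, and 26.8%, 14.9% and 6.005% in VitD replicates 1 to 3. In VitD replicate 1 the TPM of Ankrd23 was 0.531 times that of Ankrd1, whereas in Control it was 86.6 and 77.9 times as high.

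**Figure D2:**
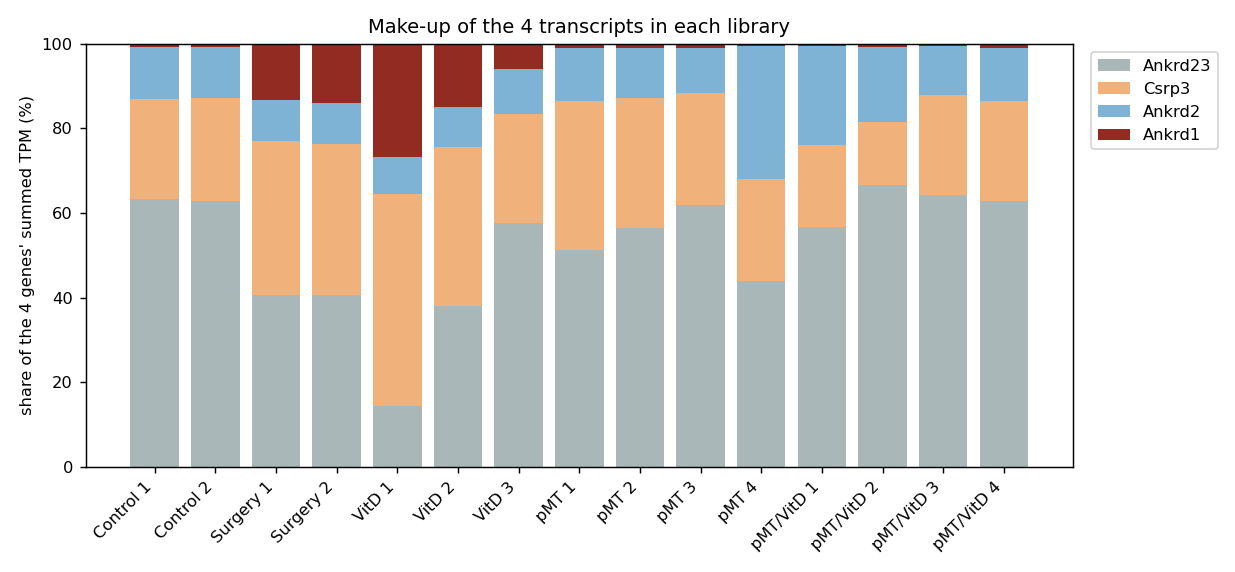
Share (%) of the summed TPM of Ankrd23, Csrp3, Ankrd2 and Ankrd1 in each library, stacked from bottom to top in that order. Ankrd1 is visible as 6.005% to 26.8% of the bar in the Surgery and VitD libraries and is at most 1.05% elsewhere.

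VitD muscle was compared with Control muscle in 1 fit over all 15 libraries and 17201 genes by edgeR's quasi-likelihood test with Benjamini-Hochberg adjustment (a gene is called at an adjusted p under 0.05). Ankrd1 was 35.5-fold higher by group mean, which on the log2 scale is 5.15 ± 0.77 (± standard error throughout, with an adjusted p of 0.00393). It was the only 1 of the 4 genes called higher, where 5.48% of all genes tested were called higher and 3.2% lower. All 3 VitD libraries lay above both Control libraries, as they did for 25% of genes. The call held without VitD replicate 2 (log2 fold change 5.33, adjusted p = 0.00885) and was lost in a fit of only these 2 groups (5.17, 0.0688). It was lost without Control replicate 1 (log2 fold change 5.14, adjusted p = 0.0824), without Control replicate 2 (5.16, 0.0708) and without the 4 libraries named above (5.32, 0.416). Csrp3 had a log2 fold change of 1.34 ± 0.42 and missed the threshold (adjusted p = 0.0623), although all 3 VitD libraries lay above both Control libraries. Without VitD replicate 3 it was called (1.69, adjusted p = 0.00725), and without VitD replicate 1 its log2 fold change was 0.68. Ankrd2 had a log2 fold change of 0.20 ± 0.39 (adjusted p = 0.780), which turned to -0.04 without VitD replicate 1. Ankrd23 had a log2 fold change of -0.43 ± 0.24 (adjusted p = 0.279). Over all genes, 942 were called higher and 550 lower with TMM scaling, against 2660 and 135 when libraries were scaled by total count alone, which moved the median log2 fold change of all genes up by 0.285.

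pMT/VitD muscle, given both agents, was then compared with VitD muscle in the same fit. Ankrd1 was 38.9-fold lower by group mean, or -5.28 ± 0.57 in log2 (edgeR adjusted p = 0.000169). Csrp3 fell as well, with a log2 fold change of -1.51 ± 0.34 (edgeR adjusted p = 0.00665). These were 2 of 4 genes called lower, where 12.2% of all genes tested were called lower and 9.66% higher. The 4 pMT/VitD libraries lay below all 3 VitD libraries for both genes, as they did for 15.6% of genes. The Ankrd1 call held without any 1 of the 7 libraries (log2 fold change from -5.75 to -4.22) and without the 4 libraries named above (-5.47, adjusted p = 0.0134). The Csrp3 call was lost without VitD replicate 1 (-0.85, adjusted p = 0.0502) and without the 4 libraries (-1.63, 0.0647). Ankrd2 had a log2 fold change of 0.27 ± 0.32 (adjusted p = 0.592), a sign that turned to -0.10 when libraries were scaled by total count. Ankrd23 had a log2 fold change of 0.47 ± 0.21 (adjusted p = 0.114) and was called without VitD replicate 3 (0.70, adjusted p = 0.0322). Over all genes, 1662 were called higher and 2104 lower, against 393 and 5365 with scaling by total count, which moved the median log2 fold change of all genes down to -0.34.

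Between pMT/VitD and Control muscle none of the 4 genes was called, and neither was any of the 17201 genes in this fit (0% called). At an unadjusted p under 0.05 there were 496 genes (2.88%). DESeq2 called 0 genes, the exact test of edgeR 4, and limma-voom with sample weights 1822. The log2 fold change was -0.13 ± 0.59 for Ankrd1 (edgeR adjusted p = 0.973), -0.17 ± 0.38 for Csrp3 (0.938), 0.47 ± 0.37 for Ankrd2 (0.906) and 0.04 ± 0.23 for Ankrd23 (0.980), whose sign turned to -0.02 with scaling by total count. Control replicate 1 was the library matched by a weighted mean of 2 pMT/VitD libraries. Its Ankrd1 level was 10.3 CPM against 11.3 CPM in that mean.

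The comparisons that use the Surgery or pMT libraries are given as descriptions, because those libraries had served to choose Ankrd1. Ankrd1 had a log2 fold change of 4.58 ± 0.77 in Surgery against Control, 0.57 ± 0.61 in VitD against Surgery, -4.29 ± 0.57 in pMT against Surgery and -4.71 ± 0.58 in pMT/VitD against Surgery. In the same 4 comparisons Csrp3 had 1.03 ± 0.44, 0.30 ± 0.40, -0.56 ± 0.37 and -1.21 ± 0.37. Against Control, the pMT group had log2 fold changes of 0.30 ± 0.59 for Ankrd1, 0.47 ± 0.39 for Csrp3, 0.58 ± 0.37 for Ankrd2 and -0.07 ± 0.23 for Ankrd23. Ankrd1 had -0.43 ± 0.48 and Csrp3 -0.64 ± 0.31 in pMT/VitD against pMT. Comparisons with the same group share its libraries and are not separate evidence. Ranked from the lowest of 17201 log2 fold changes in pMT against Surgery, Ankrd1 was at rank 37 and Csrp3 at rank 1840, and 17.2% of all genes had every pMT library below both Surgery libraries.

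**Figure D3:**
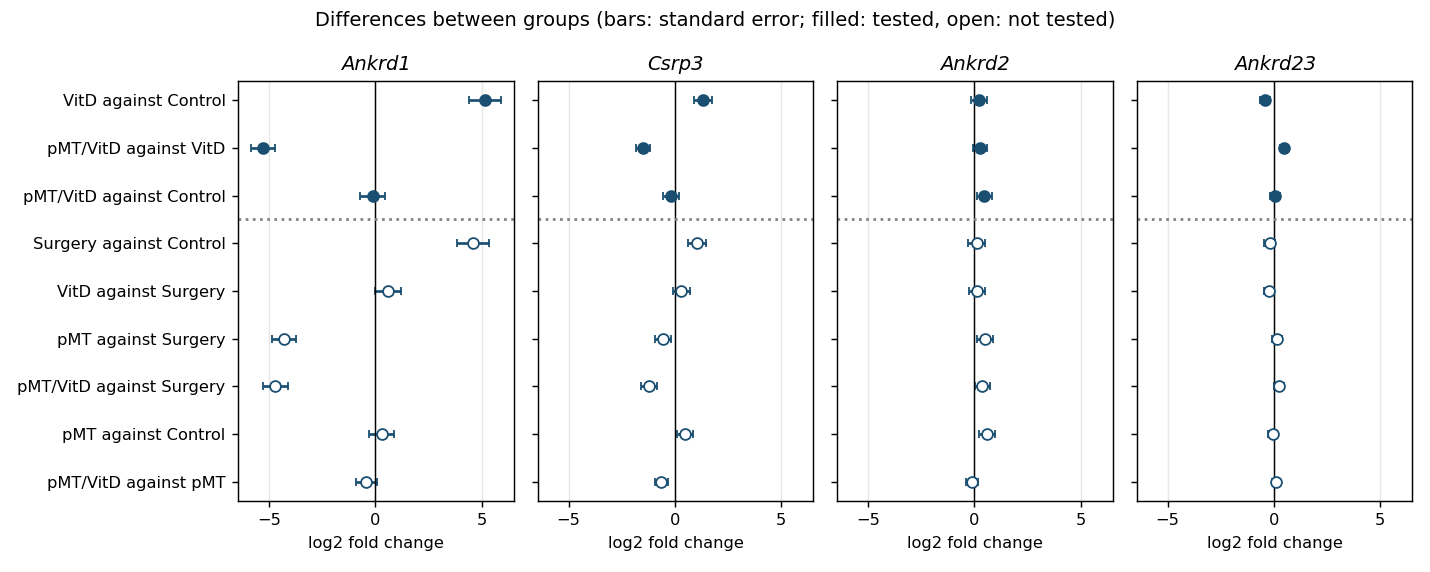
Log2 fold change with its standard error (bars) for each of the 4 genes in 9 comparisons of groups, where filled points mark the 3 tested comparisons and open points those given without a test. Ankrd1 lies between 4.58 and 5.15 above Control in the Surgery and VitD groups, Csrp3 has the same sign as Ankrd1 in all 9 comparisons with values between -1.51 and 1.34, and Ankrd2 and Ankrd23 stay between -0.43 and 0.58.

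Across the 15 libraries the log2 CPM of Ankrd1 and Csrp3 had a Pearson correlation of 0.846, and of 0.877 after group means were taken off. Without VitD replicate 1 it was 0.773. Many genes were closer to Ankrd1, as Csrp3 was at rank 719 of 11399 genes by this correlation. Ankrd1 had a correlation of -0.218 with Ankrd2 and -0.650 with Ankrd23, but without VitD replicate 1 these were -0.398 and -0.421, so their difference rested on that library. Ankrd23 and Csrp3 had -0.718, and -0.373 without it. Ankrd2 and Ankrd23 had a correlation of -0.423, which was -0.742 after group means were taken off. All points share library preparation and scaling, and several libraries resembled others, so these values are descriptions over n = 15. Within the pMT group replicate 4 was lowest for both genes, whereas over the other 3 libraries Csrp3 ran from 317 to 209 CPM with Ankrd1 between 14.1 and 15.3 CPM.

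**Figure D4:**
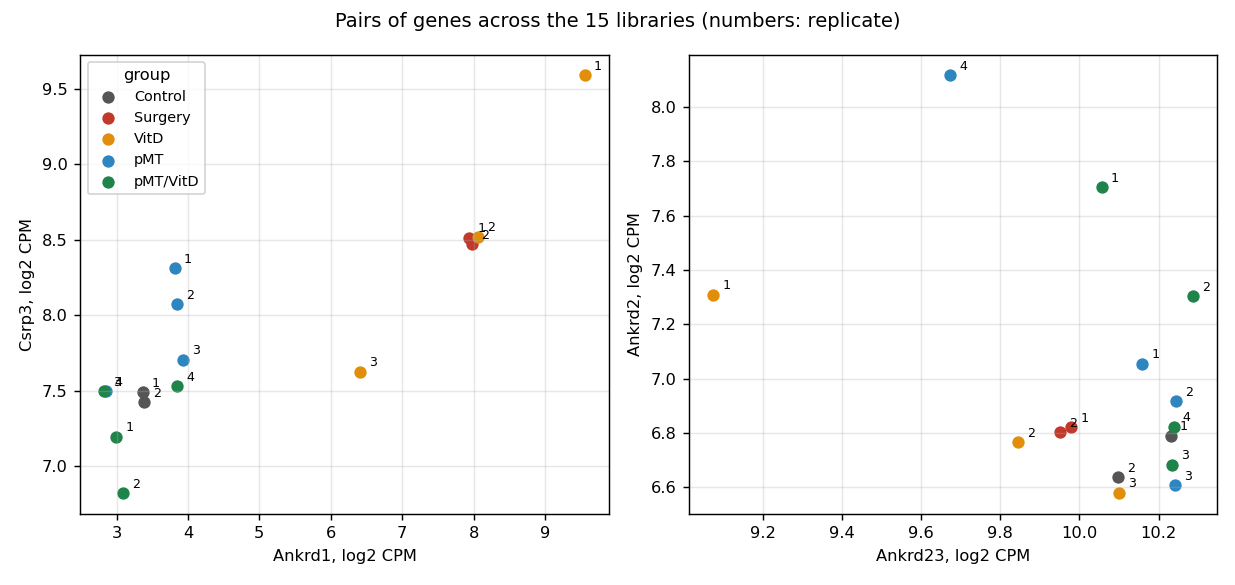
Log2 CPM of Csrp3 against Ankrd1 (left) and of Ankrd2 against Ankrd23 (right), 1 point per library, coloured by group and numbered by replicate. Csrp3 is higher in libraries with more Ankrd1 (Pearson 0.846), VitD replicate 2 lies on the 2 Surgery points, and pMT replicate 4 has the highest Ankrd2 with the next to lowest Ankrd23.

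Of 11399 genes whose log2 CPM averaged 1 or more, those most like Ankrd1 over the 15 libraries were Lgmn (Pearson 0.989), a lysosomal protease, Serpinh1 (0.985), the collagen chaperone, Tceal7 (0.982), Postn (0.982), the matrix protein periostin, and Myof (0.982), a membrane repair protein of fusing myoblasts. Postn stood at 59.6 and 67.3 CPM in Control, 278 and 294 CPM in Surgery, and 613, 318 and 196 CPM in VitD. The pMT and pMT/VitD libraries held between 44.3 and 108 CPM of Postn. Its span from Control to VitD was narrower than that of Ankrd1, with log2 fold changes of 2.57 ± 0.42 (edgeR adjusted p = 0.00498) and, in pMT/VitD against VitD, -2.64 ± 0.33 (0.000292). Tceal7, at 2.08 ± 0.38 and -2.37 ± 0.30, and Myof, at 1.10 ± 0.19 and -1.15 ± 0.15, were called in the same 2 comparisons. These genes were chosen for their likeness to Ankrd1, so their direction adds nothing to it. Csrp3 was most like Tubb6 (0.968), a tubulin of developing and injured fibres, Ezr (0.956), a membrane linker of actin, and Gas2l1 (0.954). Ankrd2 was most like Cryab (0.952), the small heat shock protein of oxidative muscle, which stood at 1803 CPM in pMT replicate 4 and 1698 CPM in pMT/VitD replicate 1, against 1190 and 1068 CPM in Control. Trnh (0.937) and RGD1305645 (0.931) came next. Ankrd23 was most like Nmnat3 (0.980), a mitochondrial enzyme of NAD synthesis, Mknk2 (0.976) and Tor1aip1 (0.965).

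Partners of these proteins at titin and the Z-disc were counted as a list beside all genes. Of 35 such genes, 0 were called higher and 4 lower in VitD against Control (edgeR, adjusted p under 0.05), where 5.48% and 3.2% of all genes were. The list median log2 fold change was -0.24 against -0.01 over all genes. The comparison of pMT/VitD with VitD called 7 higher and 3 lower, where 9.66% and 12.2% of all genes were. The list median was 0.17 against 0 over all genes. Without VitD replicate 1, 1 was called lower in the first comparison, and 5 higher and 0 lower in the second. Without the 4 libraries, 1 was called higher and 0 lower in the second. Palld, an actin-binding Z-disc protein, had -1.15 ± 0.16 and then 1.11 ± 0.14. Capn3, the protease held on titin near the site that binds the ankyrin repeat proteins, had -0.54 ± 0.15 and 0.43 ± 0.13. Tcap, the titin cap that binds muscle LIM protein, was called in the second comparison at 0.79 ± 0.14. The 3 called lower there were Fhl2 (-0.85 ± 0.27), Xirp2 (-0.64 ± 0.21) and Smpx (-0.57 ± 0.18), none of them called lower without VitD replicate 1. Called genes outside the 3 most abundant of a list were picked for naming once their values were known. Of the 3 most abundant in the list, Myoz1 was called only in the second comparison (0.99 ± 0.23), and Ttn (-0.16 ± 0.22) and Actn3 (0.65 ± 0.27) were not called in either. Csrp1, a relative of Csrp3 that is not confined to striated muscle, was called lower in pMT/VitD against VitD (-0.53 ± 0.16, edgeR adjusted p = 0.0322), and Csrp2 was not (-0.28 ± 0.26). The Csrp1 call was lost without VitD replicate 1 and without the 4 libraries.

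Ankrd1 is a textbook target of YAP and TAZ, the coactivators that the Hippo kinases hold back and that bind TEAD factors. Of 19 other tested target genes, 5 were called higher and 0 lower in VitD against Control, where 5.48% and 3.2% of all genes were. The median log2 fold change of the list was 0.20. Those 5 were Myof, Ctgf (0.9996 ± 0.28), a matricellular growth factor, Ccdc80 (1.07 ± 0.29), Tgfb2 (0.84 ± 0.19) and Gadd45a (1.501 ± 0.33). Between pMT/VitD and VitD, 0 were called higher and 7 lower, against 9.66% and 12.2% of all genes, with a median of -0.46. Without VitD replicate 1 the counts were 1 higher and then 2 lower. Without the 4 libraries 2 were called lower in pMT/VitD against VitD. Ctgf stood at 41.5 and 38.8 CPM in Control, 70.5 and 73.0 CPM in Surgery, and 105.1, 73.9 and 61.8 CPM in VitD, but also at 64.2 CPM in pMT replicate 4, where Ankrd1 was at its group's lowest. Cyr61, another gene of the list, did not follow Ankrd1. It stood at 39.8 and 36.2 CPM in Control, 31.7 and 30.3 CPM in Surgery, and 41.5, 29.5 and 26.5 CPM in VitD. Called or not, 14 genes of the list had a positive and 5 a negative log2 fold change in VitD against Control. Of 17 genes of the Hippo pathway and the TEAD factors, 2 were called higher (Mob1a and Stk3) and 1 lower (Vgll2) in VitD against Control. In pMT/VitD against VitD 2 were called higher and 3 lower. Set beside the shares of all genes above, these counts do not mark the list out. Without VitD replicate 1 these counts were 0 higher and 1 lower, then 1 and 3. Without the 4 libraries 1 was called lower in pMT/VitD against VitD. Tead1 had log2 fold changes of -0.86 ± 0.37 and 0.38 ± 0.32 and Yap1 of 0.09 ± 0.14 and -0.27 ± 0.12, none of them called. Of 16 genes of SRF and its MRTF coactivators, which also respond to load, 1 was called higher in VitD against Control, the cardiac alpha-actin gene Actc1 that embryonic muscle also uses (3.72 ± 0.54, edgeR adjusted p = 0.00334). Called lower in pMT/VitD against VitD were 4, Actc1 among them (-3.28 ± 0.40), but 1 without VitD replicate 1 and 1 without the 4 libraries. Actc1 ran from 17.3 CPM in Control to 445 CPM in VitD replicate 1. Its protein is nearly identical to that of Acta1, and how reads were assigned between the 2 genes was not tested.

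Many genes known to rise in denervated and regenerating fibres were called in the same direction as Ankrd1. Of 17 denervation genes, 9 were called higher and 0 lower in VitD against Control (median log2 fold change 1.37). In pMT/VitD against VitD 0 were called higher and 10 lower (median -1.10). Over all genes, 5.48% were called higher in the first comparison and 12.2% lower in the second. Chrng, the fetal subunit of the acetylcholine receptor, had 4.05 ± 0.72 and -2.44 ± 0.49, from levels of at most 3.86 CPM. Chrna1, the alpha subunit, had 1.72 ± 0.29 and -1.46 ± 0.23, and Cdkn1a, the cell cycle inhibitor p21, had 2.87 ± 0.42 and -2.52 ± 0.32. Of 13 genes of regenerating and developing fibres, 7 were called higher in the first comparison and 8 lower in the second, with medians of 1.07 and -0.81. Lists share genes, so their counts are not separate evidence. Myog and Ncam1 were counted in both of these lists, Gadd45a also among the YAP and TAZ targets, and Actc1 also among the SRF genes. Myh3, embryonic myosin, stood at 30.7 and 21.9 CPM in Control, 326 and 335 CPM in Surgery, and 993, 343 and 113 CPM in VitD. Its pMT and pMT/VitD values ran from 15.5 to 61.7 CPM, so its 2 ranges parted as those of Ankrd1 did. Myh8, also among the 3 most abundant of this list, was called in neither comparison (-0.008 ± 0.53 and -0.57 ± 0.44). Myog, the differentiation factor myogenin, had 1.37 ± 0.19 and -1.17 ± 0.15. Trim63, the ubiquitin ligase MuRF1 of wasting muscle, was not called (-0.03 ± 0.17 and 0.18 ± 0.14). Without VitD replicate 1 the denervation counts were 6 higher and 7 lower and the regeneration counts 7 and 7. Without the 4 libraries that resembled others, 6 genes of each list were called lower in pMT/VitD against VitD. In VitD against Control that setting left 1 Control library and called hardly any gene, so it cannot judge these lists.

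Macrophage and fibroblast markers were also called in the direction of Ankrd1. Of all genes, 5.48% were called higher and 3.2% lower in VitD against Control. In pMT/VitD against VitD 9.66% were called higher and 12.2% lower. All 10 macrophage markers were tested, and 6 were called higher in VitD against Control and 10 lower in pMT/VitD against VitD. Their summed level was 303 to 320 CPM in Control, 591 to 599 in Surgery, 508 to 794 in VitD, 250 to 339 in pMT and 233 to 342 in pMT/VitD. Of 10 fibroblast markers, 7 were called higher and then 8 lower. Their summed level was 2796 to 2820 CPM in Control, 5052 to 5095 in Surgery, 4190 to 8154 in VitD, 2747 to 3275 in pMT and 2068 to 3035 in pMT/VitD. Of the 3 most abundant fibroblast markers, Col3a1 and Col1a1 were called in both comparisons. Dcn was called in neither (-0.013 ± 0.15 and -0.25 ± 0.13). Without VitD replicate 1, the macrophage counts were 2 higher and then 10 lower and the fibroblast counts 5 and 6. Without the 4 libraries, 8 macrophage and 6 fibroblast markers were called lower in pMT/VitD against VitD. The part of these cells in the Ankrd1 values was not tested. Of 10 cardiomyocyte-restricted genes, 5 passed the filter and 0 were called in either comparison. Myh6 held nearly all of their summed level, at 180 to 367 CPM, so it was not confined to heart here. Mybpc3 and Tnni3 reached at most 0.691 and 0.886 CPM. The lack of calls in this list is therefore weak information. Of 14 fast fibre genes, 0 were called in VitD against Control and 4 higher in pMT/VitD against VitD, where Myh4, the myosin of the fastest fibres, had 1.04 ± 0.34. Of 11 slow fibre genes, Casq2 alone was called, at 1.43 ± 0.34 and then -1.24 ± 0.27. Endothelial markers had 2 of 8 called higher in the first comparison, and 1 higher and 2 lower in the second. Smooth muscle and pericyte markers had 1 of 8 called lower, and then 1 higher and 2 lower. The gene called lower and then higher was Des (-0.63 ± 0.16, then 0.69 ± 0.14), whose protein desmin the study used as a marker of muscle structure. Des ran from 2780 CPM in VitD replicate 1 to 5749 CPM in pMT/VitD replicate 4. Its calls cannot be assigned to smooth muscle or pericytes. Of 7 adipocyte markers 1 was called higher and then lower, and of 7 Schwann cell markers 0 and then 1 lower. Without VitD replicate 1 the 4 fast fibre calls became 1, the endothelial counts 0 and then 1 higher and 1 lower, those of smooth muscle and pericytes 0 and then 1 higher and 1 lower, and the adipocyte counts 1 and then 0. Without the 4 libraries, 0 genes of these 6 lists, slow fibre and Schwann cell genes included, were called in pMT/VitD against VitD. In VitD against Control that setting cannot judge a list.

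**Figure D5:**
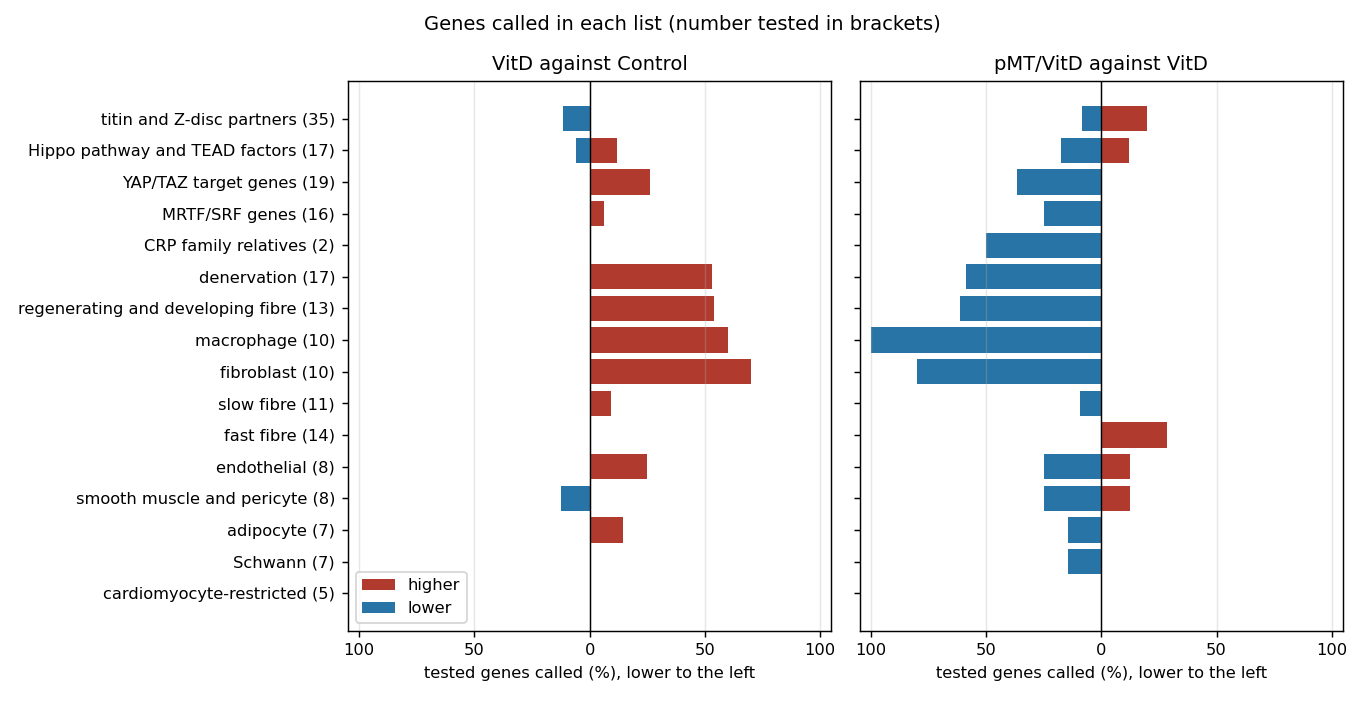
Percentage of the tested genes of each list called higher (right, red) or lower (left, blue) by edgeR in VitD against Control and in pMT/VitD against VitD, with the number tested in brackets. Macrophage (6 of 10, then 10 of 10), fibroblast, regenerating fibre and denervation genes have the longest bars in both comparisons, and titin and Z-disc genes have short bars, with 4 of 35 lower and then 7 higher and 3 lower. Some lists share genes, so the bars are not all separate counts.

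In the comparisons with the Surgery libraries, whose genes outside the 4 were tested, 5 of 17 denervation genes and 5 of 13 regeneration genes were called higher in Surgery against Control, where 1.25% of all genes were. In pMT against Surgery, 7 of 17 and 7 of 13 were called lower, where 1.55% of all genes were. In pMT/VitD against Surgery, 8 of 17 and 7 of 13 were called lower, where 5.03% of all genes were. Macrophage markers were called higher for 2 of 10 in Surgery against Control, and lower for 5 of 10 in pMT against Surgery and 10 of 10 in pMT/VitD against Surgery. For the fibroblast markers the counts were 2, 4 and 6 of 10. VitD replicate 1 enters these comparisons only through steps shared by all libraries, which are the spread, the scaling and the filter on low counts. Without that library, Surgery against Control called 9 denervation, 7 regeneration, 5 macrophage and 6 fibroblast genes higher. Without the 4 libraries that resembled others, 1 Surgery library was left and hardly any gene was called, so these lists could not be judged. These 3 comparisons share the Surgery libraries.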

How the data were processed

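Paired-end RNA sequencing of multifidus muscle gave a deposited table of 37991 genes. Per the submitters' processing notes and the study's methods, reads were trimmed by the authors (Trimmomatic 0.38), mapped to rn6 (HISAT2 2.1.0), sorted (SAMtools 1.9) and quantified per gene (StringTie 2.1.3b). The raw counts per gene deposited by the authors were used for all tests. The TPM values deposited by the authors were used for shares and for 1 alternative with a pseudocount of 1. The FPKM columns (15) were not used. Whether counting used strand is not given in the sources used here. No annotation of the authors' build was used, so only promoter windows have coordinates.

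Counts were scaled by TMM and tested in 1 fit over 15 libraries with edgeR 4.0.16 under R 4.3.3 (quasi-likelihood test, Benjamini-Hochberg adjustment, threshold 0.05, group as the only term, genes kept by filterByExpr). Standard errors come from the fold change and its F statistic, and log2 CPM has a prior count of 2. On simulated counts for pMT/VitD against VitD over 16911 genes, 87% of 200 changed genes were recovered, with 4 false calls. Simulated libraries were independent, had the fitted spread, and held equal numbers of raised and lowered genes. The measured libraries resembled one another and had many more genes called, so this result does not show that the p-values hold for them. Alternatives used DESeq2 1.42.0 and limma 3.58.1. Totals of 52342134 counts or more leave the spread between libraries, not counting error, as the limit on precision for abundant genes. Counting error also matters for genes with few reads, such as Chrng at 0.142 and 0.100 CPM in Control. Library likeness was measured over genes with a mean log2 CPM above 5.

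The 4 genes and the gene lists were chosen with earlier results of these data known. Tests of the 4 genes were kept to comparisons between groups other than Surgery and pMT. The spread and scaling behind those tests still came from all 15 libraries, Surgery and pMT included. Named genes are the 4 genes, the 5 most like Ankrd1, the 3 most like each other gene, and genes of the lists. Naming the 3 most abundant of each list was planned, but not all of these are named. Other genes of the lists were named after their values were seen. Arhgef17, Myl6b and Mymx were not matched in the table.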

Additional observations from a re-analysis of the deposited data

Results flagged for a closer look

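Ankrd1 in pMT replicate 4, at 7.16 CPM, lay far below the other 3 pMT libraries (14.1 to 15.3 CPM). Its gap to the nearest of them was 0.85 of the range of the group, above Dixon's 95% critical value for 4 samples. It was the only value past the limit among 8 sets, the 4 genes in the pMT and pMT/VitD groups, and chance flags about 1 set in 20. In the same library Ankrd2 was the highest of all 15 (278 CPM, gap 0.803) and Ankrd23 the lowest of its group (817 CPM, gap 0.823), both under that value.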

How the results depend on the processing

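The comparison of pMT/VitD with VitD kept the Ankrd1 call under all 20 alternatives (log2 fold change from -5.75 to -4.22), and the Csrp3 call under 18 of 20. The Ankrd1 call in VitD against Control held under 14 of 18. It was lost in a fit of only the 2 groups (5.17, adjusted p = 0.0688), without the 4 libraries that resembled others (5.32) and without either Control library, and ranged from 4.08 to 5.62 when 1 library was left out. Leaving out 1 library moved the log2 fold change of Csrp3 from 0.68 to 1.69 in VitD against Control and from -1.86 to -0.85 in pMT/VitD against VitD. Without the 4 libraries the second was -1.63. It moved Ankrd2 from -0.039 to 0.35 and Ankrd23 from 0.23 to 0.70 in the same 2 comparisons in turn, and Ankrd23 from -0.025 to 0.11 in pMT/VitD against Control. Csrp3 in VitD against Control passed the threshold with scaling by library size (1.66), DESeq2 (1.37) and limma-voom (1.02), and Ankrd23 with limma-voom (-0.32). For pMT/VitD against VitD, Ankrd23 passed with DESeq2 (0.49) and limma-voom (0.31) and Ankrd2 with limma-voom (0.63), whereas Ankrd2 turned to -0.10 with library size and -0.19 on log2(TPM + 1). For pMT/VitD against Control, Ankrd23 turned to -0.016 with library size, -0.0026 with limma-voom and -0.083 on log2(TPM + 1). The cause was not tested.

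Counts of called genes depended far more on the setting. In VitD against Control (1492), the count was 2795 with library size, 2368 with a length trend removed, 2589 without replicate 4 of pMT and pMT/VitD, 1 without the 4 libraries, 96 with only the 2 groups, 2471 with DESeq2, 6434 with limma-voom, and 13 to 2396 with 1 library left out. In pMT/VitD against VitD (3766) it was 5758 with library size, 517 without the 4 libraries, 1816 with only the 2 groups, 8382 with limma-voom and 1855 to 4561 with 1 library left out. In pMT/VitD against Control (0) it was 11 without replicate 4 of both groups, 4 with the exact test, 1822 with limma-voom and 0 to 2 with 1 library left out. In Surgery against Control (266) it was 997 with library size, 512 with a length trend removed, 716 without replicate 4 of both groups, 0 without the 4 libraries, 5289 with only the 2 groups, 5923 with the exact test, 1001 with DESeq2, 4902 with limma-voom and 8 to 20 with 1 library left out. In pMT against Surgery (334) it was 541 without replicate 4 of both groups, 0 without the 4 libraries, 520 with only the 2 groups, 1180 with the exact test, 747 with DESeq2, 6457 with limma-voom and 27 to 290 with 1 library left out. In pMT/VitD against Surgery (1279) it was 3250 with library size, 3462 without replicate 4 of both groups, 6 without the 4 libraries, 836 with only the 2 groups, 2226 with DESeq2, 6777 with limma-voom and 122 to 2199 with 1 library left out. The other 3 comparisons called 0. VitD against Surgery reached 6 with the exact test, 1 with DESeq2, 419 with limma-voom and 0 to 1 with 1 library left out, and pMT against Control 4 without replicate 4 of both groups, 12 with the exact test, 227 with limma-voom and 0 to 1 with 1 library left out. pMT/VitD against pMT reached 3136 without replicate 4 of both groups, 93 with DESeq2 and 6595 with limma-voom.

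Equal replicate numbers did not mark shared animals in the labels, and the deviations of 24 same-number pairs correlated from -0.806 to 0.331 (median 0.0226, 5 over 0.1). With a replicate block, Surgery against Control called 106 genes, pMT against Surgery 78 and pMT/VitD against Surgery 350. In the same paired fit Ankrd1 and Csrp3 turned to 0.093 and 0.028 in pMT/VitD against Control, and no call of the 4 genes changed.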

Other observations

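Xirp1, an actin-binding repeat protein of the Z-disc list that gathers at damaged myofibrils, split the libraries along another line than Ankrd1 and was singled out after its values were seen. It stood at 596 and 587 CPM in Control, 584 and 586 CPM in Surgery, and 923, 572 and 448 CPM in VitD. The pMT libraries held 746, 552, 319 and 159 CPM, and the pMT/VitD libraries 186, 203, 138 and 987 CPM. pMT replicate 4 thus lay among pMT/VitD replicates 1 to 3, and pMT/VitD replicate 4 held the highest value of all libraries. The same 2 libraries changed sides for Ankrd1.

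Csrp3 in Control replicate 1 was 180 CPM against 183 CPM in the weighted mean of pMT/VitD replicates 3 and 4. In pMT replicate 2, Ankrd1 was 14.4 CPM against 14.7 CPM and Csrp3 269 CPM against 262 CPM in the weighted mean of pMT replicates 1 and 3. In the Surgery libraries, a weighted mean of VitD replicates 1 and 3 left a residual SD of 0.108 and 0.0850, and gave 265 and 258 CPM of Ankrd1 against 244 and 253 CPM measured.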
